A study of Mus musculus with 12 samples.

Results

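The cytosolic ribosomal protein genes were followed in CMT-93 cells, a mouse rectal epithelial line, across 12 RNA-sequencing libraries. Members were the rows of the count table whose symbol starts with Rpl or Rps and a digit, together with Rplp0, Rplp1, Rplp2 and Rpsa. Symbols marked as pseudogenes (-ps), the Rps6k kinases, Rps19bp1 and Rpl7l1 were left out. This rule found 91 of 55137 rows, of which 54 are large subunit and 37 small subunit genes by symbol. Among them, Rps3a2, Rps3a3, Rpl6l, Rpl37rt, Rpl32l, Rps4l and Rps12l1 are annotated as processed pseudogenes in build GRCm38. Their symbols lack the -ps mark, so the rule kept them.

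The 4 groups held 3 libraries each. PTSO + T. muris cells received PTSO at 20 µM for 30 min and then Trichuris muris (whipworm) antigens at 100 µg/mL. T. muris cells received vehicle and then the antigens, PTSO cells received PTSO without antigens, and Control cells received vehicle without antigens. All were collected after 6 h. PTSO is an organosulfur compound of the garlic and onion family. LPS stands in the series title, but the treatment labels give worm antigens, and the labels are followed here. The labels call the libraries triplicates and do not say that they came from separate cultures, so the p-values measure the spread between these libraries only.

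A cytosolic ribosome joins a small subunit, which reads the mRNA, to a large subunit, which forms the peptide bond, and nearly every ribosomal protein is present in a single copy. The mRNAs of these proteins carry a terminal oligopyrimidine (TOP) tract, a run of C and T at the very 5′ end, through which LARP1 and the mTOR kinase adjust how well they are translated. Much of the known control of these genes in growing and stressed cells therefore acts on translation, which an mRNA count does not measure. Dividing intestinal epithelium makes ribosomes at a high rate.

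Libraries held 16684143 to 34506754 counts. Control library 1 lay with the treated libraries and control libraries 2 and 3 lay apart from all others: on the first principal component, which held 19.6% of the variance, the treated libraries ran from 0.929 to 23.0, whereas the Control libraries scored -3.58, -35.4 and -41.5. The subunit medians against Control and the members called against Control are therefore also given with control library 1 as the only Control. In that fit the single library is assumed to vary like the other groups. It called fewer of all genes in PTSO + T. muris against Control than the fit with all libraries. A call lost in it therefore does not single out a gene. Values of other genes, and counts of members whose groups did not overlap, rest on all Control libraries unless stated. Of 10 intestinal epithelial markers, 8 averaged at least 1 CPM (counts scaled to a common library size with the edgeR TMM factors), with a summed level of 9223 to 9925 CPM in every library. Krt20, a keratin of mature epithelium, and Cdx2, a transcription factor of intestinal identity, averaged 0.503 and 0.864 CPM. Of 7 leukocyte markers only Cd68 averaged over 1 CPM, at 4.02 CPM. The 7 summed to 3.17 to 4.37 CPM in PTSO + T. muris, 2.77 to 4.52 in T. muris, 3.05 to 5.51 in PTSO and 4.60 to 5.88 in Control libraries. Of 5 fibroblast markers, Col1a1 averaged 2.44, Pdgfra 0.945 and Col1a2 0.409 CPM, and Col3a1 and Dcn had no count. The 5 summed to 2.30 to 3.56 CPM in PTSO + T. muris, 4.12 to 4.52 in T. muris, 3.08 to 4.46 in PTSO and 3.45 to 4.64 in Control libraries. The part of these low marker levels in the results was not tested.

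C and T runs near the annotated gene start were read from RefSeq promoter sequences (mouse build GRCm38.p6), which held 66 of the 91 members. Within 50 bases either side of the start, 54 of these 66 genes (81.8%) held a run of at least 8 C or T on the coding strand, against 39.3% of all 27025 genes in the same windows. The median longest run was 10 bases in the members and 7 bases in all genes. The windows below belong to the genes that turn up in the group comparisons. Capitals mark the longest run of C and T inside the searched window, and each sequence is 30 bases, 5′ to 3′ on the gene's own strand.
Rplp0, chr5:115559466-115559495, plus strand: aggaccgcctggTTCTCCTataaaaggcac
Rplp2, chr7:141447636-141447665, plus strand: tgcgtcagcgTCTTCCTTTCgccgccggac
Rpl9, chr5:65391383-65391412, minus strand: acgaaagacgTTCTCTCTTTgccccatcta
Rpl12, chr2:32961732-32961761, plus strand: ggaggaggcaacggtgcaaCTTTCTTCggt
Rpl36al, chr12:69184020-69184049, minus strand: gctctgttcgTCCCTTTCCTgttcggcgcg
Rpl41, chr10:128549119-128549148, minus strand: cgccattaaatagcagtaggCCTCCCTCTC
Rpsa, chr9:120127704-120127733, plus strand: gcggaagttctcCCTTTTTgcttagcctgc
Rps2, chr17:24720083-24720112, plus strand: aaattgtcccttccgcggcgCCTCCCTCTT
Rps3a1, chr3:86142623-86142652, minus strand: acgtagacggcgCTCCCCgcccggctcgcg
The runs of Rps2 and Rpl41 end where the table's sequence ends, and that of Rpsa begins where the searched window begins. Annotated starts can lie some bases from the start used in these cells, so a run marks letters in the window and not a mapped TOP tract.

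Of the 91 members, 86 (51 large and 35 small subunit genes) passed the low count filter and were tested among 15267 genes. The remaining 5 were the copies Rps4l, Rpl39l, Rpl10l and Rps12l1, which had no count in any library, and Rpl32l, which had 71 counts in all 12 libraries together. A mean level of at least 10 CPM was reached by 83 members. Levels between genes are given as CPM per kilobase of transcript. The most abundant large subunit genes were Rplp0, at 2171 CPM per kb, Rpl41, at 2029, and Rplp1, at 1508. RPLP0 and RPLP1 build the P stalk, which recruits elongation factors, and RPL41 is the smallest ribosomal protein. The most abundant small subunit genes were Rps2, at 2110 CPM per kb, Rps18, at 1563, and Rps9, at 1073. RPS2 and RPS9 contribute to the mRNA entry side of the small subunit, and RPS18 lies in its head.

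At the low end of the large subunit stood Rpl36al, Rpl24 and Rpl3l, at 1.66, 0.840 and 0.137 CPM per kb. Rpl3l and Rpl36al are copies of Rpl3 and Rpl36a, and Rpl3l is known from heart and skeletal muscle. Rpl24 encodes a standard large subunit protein, and its row held 174 counts over all 12 libraries. Whether so low a row gives the level of its mRNA was not tested, and the handling of reads that match several genes is not known. The lowest tested small subunit rows were Rps3a3, annotated as a processed pseudogene, at 16.9 CPM per kb, Rps20, at 110, and Rps27l, at 145. Rps20 was divided by an annotated transcript of 3706 bases and had a mean level of 408 CPM without that division.

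Together the large subunit genes took 2.58% ± 0.0633 of all counts in PTSO + T. muris cells, 2.58% ± 0.0173 in T. muris cells, 2.50% ± 0.0486 in PTSO cells and 2.45% ± 0.153 in Control cells (SD, n = 3 each). The small subunit genes took 1.74% ± 0.0174 in PTSO + T. muris cells, 1.73% ± 0.0286 in T. muris cells, 1.68% ± 0.0506 in PTSO cells and 1.63% ± 0.119 in Control cells (SD, n = 3 each). The means were lowest in Control cells for both subunits, and the groups overlapped. Both subunits together took 4.36%, 4.23% and 4.36% in the PTSO + T. muris libraries, 4.25%, 4.34% and 4.32% in the T. muris libraries, 4.21%, 4.07% and 4.27% in the PTSO libraries and 4.39%, 3.89% and 3.94% in the Control libraries. Control library 1 thus had the highest share of all 12, and control libraries 2 and 3 the lowest shares. The large subunit sum was 1.45 to 1.52 times the small subunit sum in every library, so both sums went up and down together. In bulk RNA a change per cell and a change in the mix of cells cannot be told apart.

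**Figure D1:**
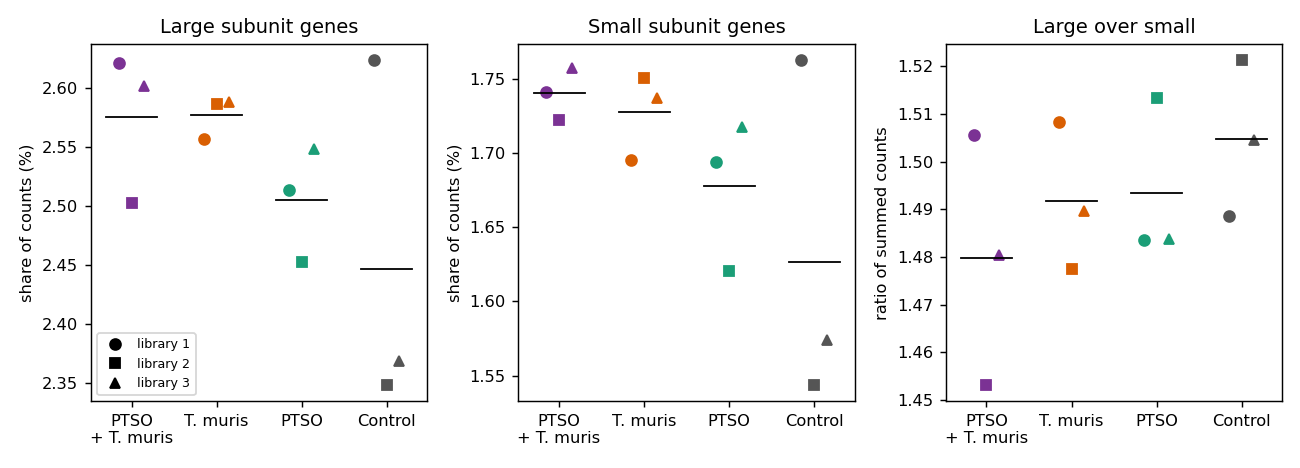
Share of all counts (%) taken by large subunit genes (left) and small subunit genes (middle), and their ratio (right), in each library by group. Points are libraries, shaped by library number, and lines are group means; Control library 1 lies at the top of the first 2 panels and Control libraries 2 and 3 at the bottom.

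The medians over genes also set control libraries 2 and 3 low, with PTSO library 2 between them for the small subunit. Among treated libraries the lowest, PTSO library 2, deviated from the 12-library means by a median log2 of -0.05 for large and -0.10 for small subunit genes. The large subunit genes deviated by a median of 0.07 in control library 1, and of -0.13 and -0.10 in control libraries 2 and 3. The small subunit genes deviated by 0.07 in control library 1, and by -0.11 and -0.07 in the other two. Other protein-coding genes with transcripts under 1000 bases, 904 in number, had medians of 0.02, -0.08 and -0.02 in control libraries 1, 2 and 3. Short genes thus moved the same way in these libraries by smaller amounts. The part that transcript length or RNA quality plays in the shifts was not tested. Counts on mitochondrially encoded genes took 0.901% to 1.58% of a library, with the Control libraries inside that range at 1.21% to 1.33%.

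**Figure D2:**
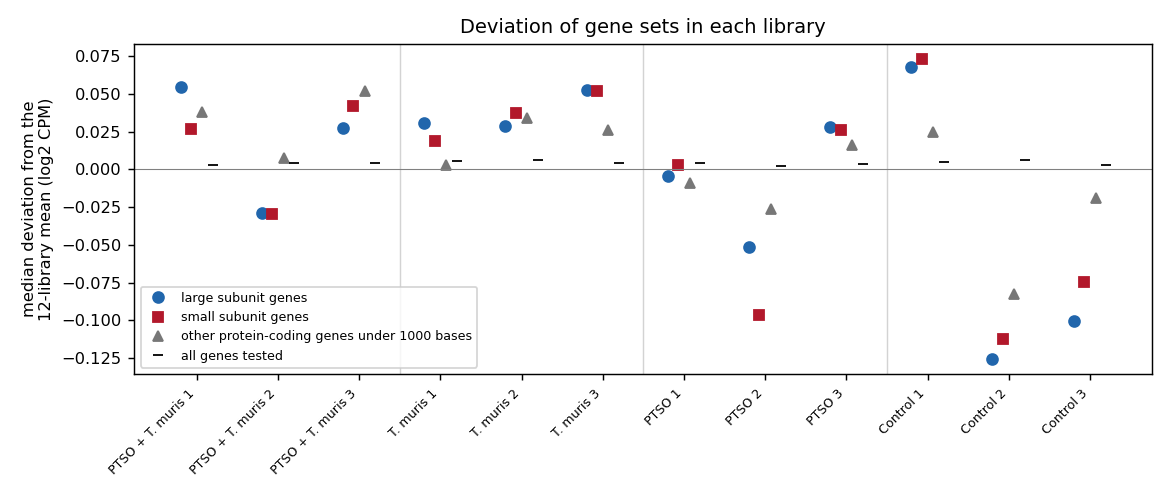
Median deviation from the 12-library mean (log2 CPM, y axis) of large subunit genes, small subunit genes, other protein-coding genes under 1000 bases and all tested genes in each library (x axis). Control libraries 2 and 3 lie at -0.13 and -0.10 for the large subunit, and Control library 1 at 0.07.

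In PTSO + T. muris cells against Control cells, 9 of 86 ribosomal protein genes rose and none fell at an adjusted p under 0.05 (edgeR quasi-likelihood test, Benjamini-Hochberg adjustment over all 15267 genes). They were 7 of 51 large subunit genes, among them the whole P stalk, and 2 of 35 small subunit genes. The 9 make up 10.5% of the members, against 16.7% of all tested genes called in either direction, 7.88% called higher and 8.85% called lower. At an unadjusted p under 0.05 there were 23 members (26.7%, against 31% of all genes). DESeq2 called 11 members, the same 9 included, against 23% of all genes it tested. Estimates were above 0 in 59 of 86 members, against 50.1% of all genes, and the median log2 fold change was 0.06 for the large and 0.07 for the small subunit. When the model held only the 6 libraries compared, no member was called, and calls over all genes fell from 2554 to 864. Without control libraries 2 and 3 the medians were -0.06 for each subunit, and the estimates of the 9 genes are given below. Leaving out control library 1 gave 37 calls, 36 higher and 1 lower, where 4799 of all genes were called, against 2554 with all libraries. There were 0 without control library 2, 0 without PTSO + T. muris library 1 and 2 without control library 3, where 990, 1048 and 1089 of all genes were called. There were 4 without PTSO + T. muris library 2, 3 without PTSO + T. muris library 3, and 5 without any one of the PTSO or T. muris libraries.

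Rplp0, the scaffold of the P stalk, had 3235, 3075 and 3042 CPM in PTSO + T. muris cells, against 3020, 2596 and 2530 CPM in Control cells. Every PTSO + T. muris library was above every Control library, and Control library 1 lay just below the lowest of them. The log2 fold change was 0.20 ± 0.051 (SE; adjusted p = 0.0124, edgeR). With control library 1 alone it was 0.05 (adjusted p = 0.808, edgeR).

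Rplp1, an acidic protein of the stalk, had 824, 760 and 791 CPM in PTSO + T. muris cells, against 769, 642 and 601 CPM in Control cells. Rplp2, its partner in the stalk dimers, had 280, 250.3 and 254 CPM in PTSO + T. muris cells, against 258, 218 and 216 CPM in Control cells. For both genes the groups overlapped, through Control library 1. Their log2 fold changes were 0.24 ± 0.067 for Rplp1 (adjusted p = 0.0237, edgeR) and 0.18 ± 0.061 for Rplp2 (adjusted p = 0.0461, edgeR). With control library 1 alone they were 0.04 and 0.02 (adjusted p = 0.884 and 0.959, edgeR).

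Rpl9, a protein at the base of the stalk, had 591, 584 and 605 CPM in PTSO + T. muris cells, against 567, 503 and 519 CPM in Control cells. Rpl12, also of the stalk base, had 626, 591 and 599 CPM in PTSO + T. muris cells, against 601, 523 and 509 CPM in Control cells. The groups were apart for Rpl9 and overlapped for Rpl12. The log2 fold changes were 0.16 ± 0.045 for Rpl9 (adjusted p = 0.0191, edgeR) and 0.15 ± 0.052 for Rpl12 (adjusted p = 0.0492, edgeR). Against control library 1 alone they were 0.07 and 0.01 (adjusted p = 0.747 and 0.972, edgeR).

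Rpl41 had 1023, 940.1 and 962 CPM in PTSO + T. muris cells, against 918, 672 and 642 CPM in Control cells, a log2 fold change of 0.39 ± 0.12 (SE; adjusted p = 0.0474, edgeR). It was apart between the groups, with Control library 1 close to the lowest PTSO + T. muris library. Leaving out control libraries 2 and 3 gave 0.09 (adjusted p = 0.654, edgeR).

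Rpl36al is the low-level copy of Rpl36a and had 38, 21 and 21 counts in PTSO + T. muris cells, against 11, 11 and 14 counts in Control cells. The T. muris libraries held 21, 20 and 19 counts and the PTSO libraries 27, 38 and 22, so all 9 treated libraries were above the 3 Control libraries. Its log2 fold change was 1.23 ± 0.41 (SE; adjusted p = 0.0462, edgeR). Leaving out control libraries 2 and 3 gave 1.35 (adjusted p = 0.518, edgeR). The parent gene Rpl36a averaged 210 ± 14.1 CPM in PTSO + T. muris cells and 205 ± 18.5 CPM in Control cells (SD, n = 3 each), a log2 fold change of 0.03 ± 0.061 (SE; adjusted p = 0.754, edgeR). The transcripts of both genes were 84.2% identical over the aligned bases.

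The called small subunit genes were Rps2 and Rpsa. Rps2 had 2381, 2352 and 2292 CPM in PTSO + T. muris cells, 2099, 2184 and 2180 in T. muris cells, 2009, 2172 and 2219 in PTSO cells, and 2134, 1708 and 1544 in Control cells. Rpsa, which also encodes the laminin receptor precursor, had 1297, 1214 and 1203 CPM in PTSO + T. muris cells, 1143, 1186 and 1194 in T. muris cells, 1139, 1125 and 1117 in PTSO cells, and 1189, 1023 and 1006 in Control cells. For both genes the 3 PTSO + T. muris libraries were the highest of all 12. Against Control the log2 fold changes were 0.38 ± 0.094 for Rps2 (adjusted p = 0.0201, edgeR) and 0.21 ± 0.053 for Rpsa (adjusted p = 0.012, edgeR). Against control library 1 alone they were 0.14 and 0.06 (adjusted p = 0.211 and 0.782, edgeR).

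**Figure D3:**
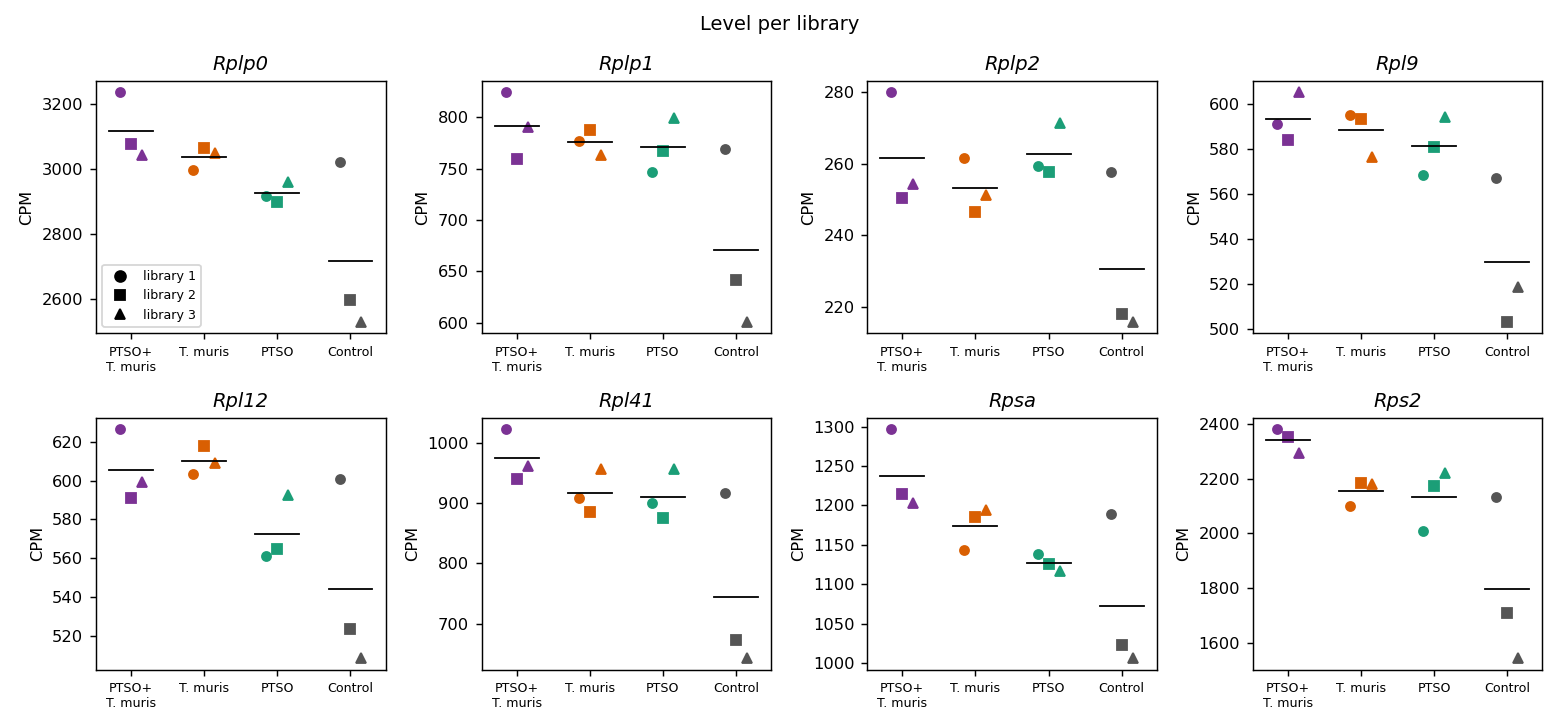
Level (CPM, TMM-scaled) of 8 of the 9 genes called in PTSO + T. muris against Control, in each library by group; points are libraries, lines are group means, and each panel has its own y axis that does not start at 0. Control library 1 lies among the treated libraries, except for Rpl9, where it lies just below them. Control libraries 2 and 3 lie below the treated libraries in every panel.

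Among the members that did not pass the test in this comparison, Rps3a1, Rps3a3 and Rpl22l1 had the lowest estimates. Rpl22l1, the paralog of Rpl22, had 32.5, 29.7 and 33.9 CPM in PTSO + T. muris cells, against 36.0, 35.5 and 36.8 CPM in Control cells. The groups were apart, with a log2 fold change of -0.17 ± 0.079 (SE; adjusted p = 0.139, edgeR). Rpl22 itself averaged 242 ± 15.3 CPM in PTSO + T. muris cells and 256 ± 12.9 CPM in Control cells (SD, n = 3 each), a log2 fold change of -0.08 ± 0.052 (SE; adjusted p = 0.298, edgeR). Rpl3, a core protein near the peptide-forming centre, had 1124, 1113 and 1130 CPM in PTSO + T. muris cells, against 1183, 1167 and 1212 CPM in Control cells. All 3 libraries were below the 3 Control libraries by a small step, a log2 fold change of -0.08 ± 0.037 (SE; adjusted p = 0.143, edgeR). Across the members, 9 were higher with no overlap of the groups, against 14.5% of all tested genes, and 5 were lower with no overlap, against 14.9% of all tested genes. Among them were Rpl22l1, Rpl3, Rpl5 and Rps6, the last pair named here after their values were seen. RPL5 carries 5S ribosomal RNA into the large subunit, and RPS6 is the small subunit protein phosphorylated by S6 kinases.

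In T. muris cells against Control cells no member passed the test (edgeR), while 6.35% of all tested genes did. At an unadjusted p under 0.05 there were 18 members (20.9%, against 25.2% of all genes), and DESeq2 called 8, against 16.2% of all genes it tested, all of them higher: Rps2, Rps12, Rpl9, Rps13, Rplp1, Rpl29, Rpl12 and Rplp0. Estimates were above 0 in 70 of 86 members, against 50.2% of all genes. The groups were apart in the higher direction for 5 members, against 11.3% of all genes, and in the lower direction for 3, against 11.7%. The median log2 fold change was 0.09 for the large and 0.08 for the small subunit, against 0.00 for all tested genes. With control library 1 alone these medians were -0.04 and -0.05. The direction of the family's median against Control thus turned with those libraries. Leaving out control library 1 instead gave 40 called members, all higher, in a fit that called 4044 of all genes, against 969 with all libraries.

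Rps12 had 268, 307 and 245 CPM in T. muris cells, against 239, 195 and 231 CPM in Control cells, and Rps13 had 233, 217 and 215 CPM in T. muris cells, against 209, 186 and 197 CPM in Control cells. In both genes the groups were apart. The log2 fold changes were 0.30 for Rps12 (adjusted p = 0.124, edgeR) and 0.17 for Rps13 (adjusted p = 0.0525, edgeR). The highest estimate among members above 10 CPM was that of Rpl17, at 0.40 ± 0.48 (SE; adjusted p = 0.667, edgeR), and it is taken up with the copies. The lowest was that of Rpl30, with 214, 211 and 217 CPM in T. muris cells, against 231, 285 and 211 CPM in Control cells. Its groups overlapped, and the log2 fold change was -0.18 ± 0.084 (SE; adjusted p = 0.197, edgeR).

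In PTSO cells against Control cells no member passed the test (edgeR), while 5.25% of all tested genes did. At an unadjusted p under 0.05 there were 12 members (14%, against 23% of all genes). DESeq2 called 5, against 12.5% of all genes it tested, of which Rps2, Rplp1, Rplp2 and Rpl9 were higher and Rps3a1 was lower. Estimates were above 0 in 58 of 86 members, against 50.4% of all genes. The groups were apart in the higher direction for 2 members, against 10.4% of all genes, and in the lower direction for 3, against 10.2%. The median log2 fold change was 0.03 for the large and 0.02 for the small subunit, against 0.00 for all tested genes, and -0.08 for both without control libraries 2 and 3. Leaving out control library 1 gave 24 called members, all higher, in a fit that called 3637 of all genes, against 802 with all libraries. The comparisons with Control share its libraries, so their values are given side by side and not as repeats of each other.

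Rps3a1, a small subunit protein at the mRNA exit side, was the member with the smallest adjusted p here. It had 673, 627 and 619 CPM in PTSO cells, against 743, 680 and 743 CPM in Control cells. The PTSO libraries all lay below the Control libraries, with a log2 fold change of -0.17 ± 0.054 (SE; adjusted p = 0.0627, edgeR). Against control library 1 alone the value was -0.22 (adjusted p = 0.209, edgeR), with no change of direction. In PTSO + T. muris cells it had 637, 702 and 627 CPM, and in T. muris cells 710, 649 and 718 CPM. Rps29, a zinc-binding small subunit protein, had the highest small subunit estimate, with 236, 221 and 299 CPM in PTSO cells, against 237, 175 and 169 CPM in Control cells. Its groups overlapped, and the log2 fold change was 0.38 ± 0.15 (SE; adjusted p = 0.178, edgeR).

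**Figure D4:**
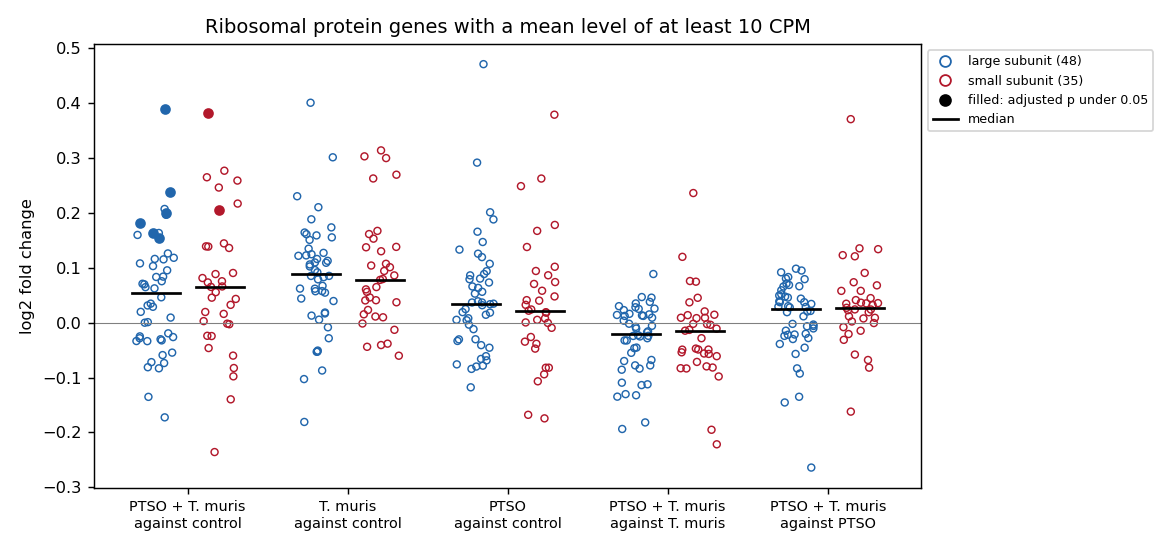
Log2 fold change (y axis) of the 83 ribosomal protein genes with a mean level of at least 10 CPM in 5 comparisons (x axis), large subunit genes left and small subunit genes right in each. Filled points passed an adjusted p under 0.05 and lines are medians; filled points occur in PTSO + T. muris against Control alone.

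The comparisons among treated groups hold no Control values in the contrast. In PTSO + T. muris against T. muris cells, which asks what PTSO did in antigen-exposed cells, no member passed the test (edgeR and DESeq2), while 0.616% of all genes did in edgeR. There were 2 members at an unadjusted p under 0.05 (2.33%, against 8.89% of all genes), and 33 of 86 estimates were above 0, against 50.2% of all genes. The median log2 fold change was -0.02 for the large and -0.01 for the small subunit, and 82 of 86 members lay within 0.2 of 0 on the log2 scale, against 73.3% of all tested genes. For 12 members all PTSO + T. muris libraries were below all T. muris libraries (14%, against 9.74% of all genes), and for 4 they were above (4.65%, against 8.92%). Rpl10, a late-joining large subunit protein, was among the 12, with 403, 385 and 404 CPM in PTSO + T. muris cells, against 457, 417 and 416 CPM in T. muris cells. The groups were apart, with a log2 fold change of -0.11 ± 0.047 (SE; adjusted p = 0.454, edgeR).

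Rps2 was above in this comparison, with the values given above: its lowest PTSO + T. muris library had 2292 CPM and its highest T. muris library 2184 CPM. The log2 fold change was 0.12 in each of 3 fits, and the test changed with the Control libraries in the model, which set part of the spread. The adjusted p was 0.786 with all 12 libraries, 0.037 without control libraries 2 and 3, and 0.0168 with the 6 compared libraries alone (edgeR). It was the one member called under either of these alternatives.

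In PTSO + T. muris against PTSO cells, which asks what the antigens did in PTSO-treated cells, no member passed the test (edgeR and DESeq2), and 0% of all genes did in edgeR. There were 2 members at an unadjusted p under 0.05 (2.33%, against 6.1% of all genes). The median log2 fold change was 0.03 for each subunit, and 57 of 86 estimates were above 0, against 50.6% of all genes. The groups were apart in the higher direction for 7 members (8.14%, against 7.49% of all genes) and in the lower direction for none (against 7.89% of all genes). Among them were Rpsa, Rpl10a, Rplp0, Rpl13, Rps2 and Rps10, of which Rpl10a, Rpl13 and Rps10 are named after their values were seen. Without control libraries 2 and 3, Rpsa and Rps2 were called, at log2 fold changes of 0.14 for both (adjusted p = 0.0431 and 0.0464, edgeR). The lowest Rpsa library in PTSO + T. muris cells had 1203 CPM and the highest in PTSO cells 1139 CPM.

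The interaction, the effect of PTSO with antigens minus its effect without them, was not called for any member in edgeR or DESeq2, and for 0% of all genes in edgeR. No member had an unadjusted p under 0.05, against 7.74% of all genes. Estimates were above 0 in 24 of 86 members, against 49.2% of all genes. The medians were -0.06 for the large and -0.04 for the small subunit, with all 12 libraries, and 0.07 and 0.08 without control libraries 2 and 3, and 12 members were called, all lower, without control library 1, where 1279 of all genes were called. In the test of any difference among the 4 groups no member passed in edgeR, against 10.7% of all genes. There were 13 members at an unadjusted p under 0.05 (15.1%, against 27.6% of all genes), and DESeq2 called 5, against 21.3% of all genes it tested: Rps2, Rpl9, Rplp1, Rpsa and Rplp0.

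The members were steady in absolute terms. The median coefficient of variation over the 12 libraries was 5.63% in tested members and 11.04% in all tested genes, most of which have fewer counts per library. The steadiest were Rps3, Rpl4 and Rpl3, at 2.23%, 2.43% and 2.60%. The most variable member above 10 CPM was Rps27rt at 41.7%, followed by Rpl17 at 30.5%, Rps27a at 23.8% and Rps27 at 21.6%. RPS27A is made as a fusion with ubiquitin. It had 273, 435 and 283 CPM in PTSO + T. muris cells, 286, 466 and 273 in T. muris cells, 415, 277 and 298 in PTSO cells, and 329, 245 and 251 in Control cells. A single library stood high in each treated group, and all groups overlapped.

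Several variable members share their sequence with another row. Over 341 aligned bases the transcripts of Rps27 and Rps27rt were 100% identical, so a short read cannot tell them apart. Rps27 had 306, 252 and 146 CPM in PTSO + T. muris cells, 317, 277 and 227 in T. muris cells, 273, 217 and 257 in PTSO cells, and 324, 181 and 230.2 in Control cells. Rps27rt had 87.0, 90.2 and 263 CPM in PTSO + T. muris cells, 80.3, 128 and 166 in T. muris cells, 95.6, 111 and 132 in PTSO cells, and 74.2, 162 and 125 in Control cells. The copy was high and the parent low in PTSO + T. muris library 3. Summed with its named copies, Rps27 ranged from 328 to 409 CPM, with a coefficient of variation of 7.43% in place of 21.6%. The third relative, Rps27l, a p53-responsive paralog, was 76.4% identical to Rps27 and had 83.2, 70.4 and 77.7 CPM in PTSO + T. muris cells, against 74.8, 58.5 and 60.0 CPM in Control cells. Its groups overlapped, with a log2 fold change of 0.26 ± 0.10 (SE; adjusted p = 0.107, edgeR).

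Rpl17 had 208, 56.3 and 192 CPM in PTSO + T. muris cells, 179, 177 and 165 in T. muris cells, 191, 163 and 193 in PTSO cells, and 145, 183 and 67.5 in Control cells. The lows were PTSO + T. muris library 2 and Control library 3. In the same libraries the row Rpl17-ps10, named as a copy, was high, at 255 and 268 CPM, against 97.8 to 184 CPM in the other libraries. Summed with its 10 named copies Rpl17 ranged from 454 to 525 CPM, with a coefficient of variation of 4.10%. The summed level turned the direction of its estimate: against Control the log2 fold change in PTSO cells was 0.47 for Rpl17 alone and -0.10 with copies (adjusted p = 0.176, edgeR). Differences of single rows of Rpl17, Rps27 and Rps27rt are therefore uncertain.

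**Figure D5:**
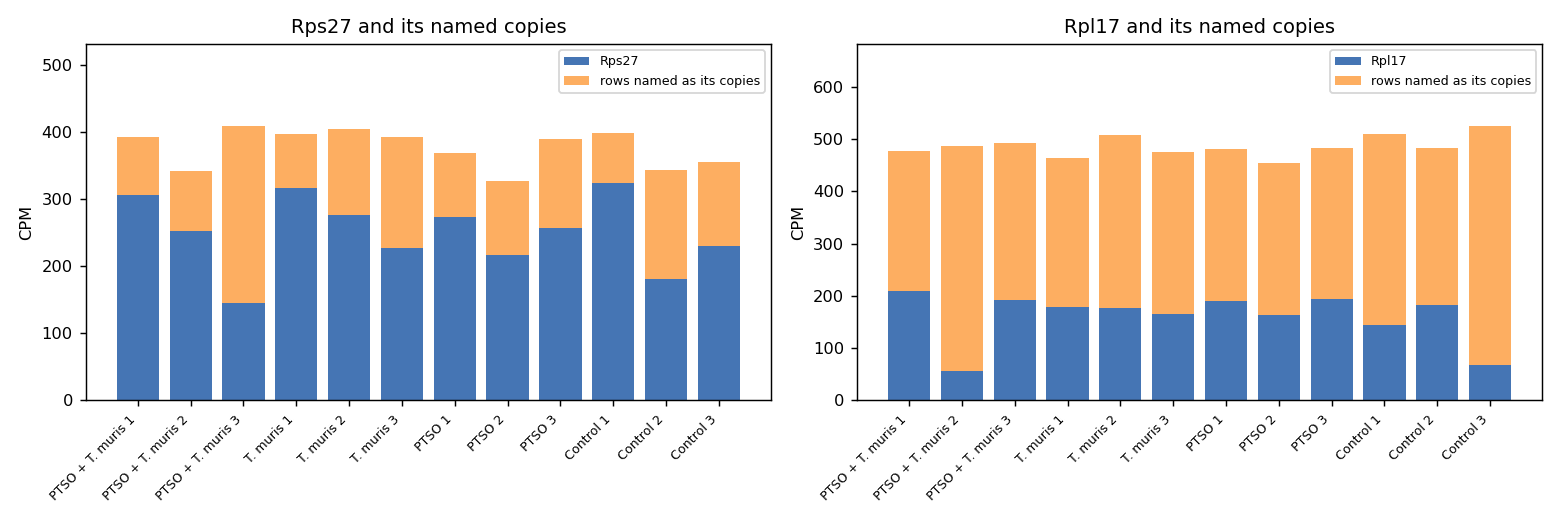
Level (CPM, y axis) of Rps27 (left) and Rpl17 (right), in blue, and of the rows named as their copies, in orange, stacked for each library (x axis). The summed height runs from 328 to 409 CPM for Rps27 and from 454 to 525 CPM for Rpl17, while the blue part changes more.

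Rps3a1 shares its sequence with Rps3a2 (99.5% identical) and Rps3a3 (98.9%). Rps3a2 had 299, 295 and 307 CPM in PTSO cells, against 269, 298 and 271 CPM in Control cells, a log2 fold change of 0.10 ± 0.056 (SE; adjusted p = 0.293, edgeR). Its estimate is opposite in sign to that of Rps3a1, and the summed level of the gene and its copies had a coefficient of variation of 3.37%, against 6.73% for Rps3a1 alone. The lower level of the single Rps3a1 row in PTSO cells is uncertain for that reason. Summed with its copies, Rps3a1 had 984, 934 and 940 CPM in PTSO cells, against 1025.5, 994 and 1029 CPM in Control cells. The summed groups were thus still apart, by a small step. Of all members, 63 had rows named as their copies, 297 rows in all, and adding these lowered the coefficient of variation of 48 members. Their median over the members with copies changed little, from 5.50% to 5.29%. The fit on summed counts called the same 9 members in PTSO + T. muris against Control.

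Rpl6l, 98.7% identical to Rpl6, averaged 27.3 ± 1.14 CPM in PTSO + T. muris cells and 27.7 ± 2.74 CPM in Control cells (SD, n = 3 each). Rpl37rt, 99.7% identical to Rpl37, averaged 53.2 ± 3.96 CPM in PTSO + T. muris cells and 55.2 ± 5.42 CPM in Control cells (SD, n = 3 each). Rpl13a, a protein released from the ribosome in interferon-treated monocytes of humans, averaged 57.9 ± 2.19 CPM in PTSO + T. muris cells and 54.0 ± 6.48 CPM in Control cells (SD, n = 3 each). Its log2 fold change was 0.10 ± 0.074 (SE; adjusted p = 0.376, edgeR). Rpl39 averaged 150.3 ± 9.03 CPM in PTSO + T. muris cells and 153 ± 18.2 CPM in Control cells (SD, n = 3 each). Its copy Rpl39l, known from testis, had no count, nor had Rpl10l and Rps4l, the copies of Rpl10 and Rps4x. Rpl3l had 9, 14 and 8 counts in PTSO + T. muris cells, 1, 1 and 0 in T. muris cells, 15, 3 and 0 in PTSO cells, and 3, 2 and 2 in Control cells. It was higher in every PTSO + T. muris library than in any T. muris or Control library, and did not pass the test against T. muris (adjusted p = 0.169, edgeR) or Control (adjusted p = 0.102, edgeR). The PTSO libraries spread across that whole range.

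Genes of the same pathway were read from lists. Fau and Rack1, ribosomal proteins whose symbols do not follow the naming rule, held 0 calls in the 5 pairwise comparisons (edgeR). Of 29 ribosome biogenesis and RNA polymerase I genes, all 29 had estimates above 0 against Control in PTSO + T. muris, T. muris and PTSO cells, at median log2 fold changes of 0.23, 0.26 and 0.19. The test was passed by 5 of them in PTSO + T. muris cells, 2 in T. muris cells and none in PTSO cells. Of all tested genes 16.7%, 6.35% and 5.25% passed it in these comparisons. Nop56, a core protein of box C/D particles that methylate ribosomal RNA, had a log2 fold change of 0.39 ± 0.10 in PTSO + T. muris cells (SE; adjusted p = 0.0263, edgeR). Nhp2, of the box H/ACA particles, had 0.48 ± 0.11 (SE; adjusted p = 0.0107, edgeR). Without control libraries 2 and 3 the medians were 0.00 in PTSO + T. muris, 0.01 in T. muris and -0.05 in PTSO cells. Without control library 1 the test was passed by 27 in PTSO + T. muris, 25 in T. muris and 23 in PTSO cells. That fit called 4799, 4044 and 3637 of all genes in these comparisons, against 2554, 969 and 802 with all libraries. Between PTSO + T. muris and T. muris cells 13 of 29 estimates were above 0, and none passed.

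Of 24 other TOP and translation genes, 7 were called in PTSO + T. muris against Control, against 16.7% of all tested genes. Of these 7, 3 were higher and 4 lower, against 7.88% and 8.85% of all tested genes. The lower ones were Eef1a1, at -0.18 ± 0.040 (SE; adjusted p = 0.00432, edgeR), Tpt1, Eif4b and Eef2. Eef1a1 and Eef2 encode the elongation factors that deliver tRNA and move the ribosome along. The higher ones were Snhg1, a snoRNA host gene, at 0.62 ± 0.13 (SE; adjusted p = 0.00851, edgeR), Hnrnpa1 and Eef1d. In PTSO against Control, 3 were called (against 5.25% of all tested genes), Eef1a1 lower and Snhg1 and Hnrnpa1 higher. In T. muris against Control, 4 were called (against 6.35% of all tested genes), all higher: Nap1l1, Eef1d, Hnrnpa1 and Eif3l. Genes that share the TOP tract with the ribosomal proteins were thus called in both directions. Without control libraries 2 and 3 the median log2 fold changes of the list against Control were -0.036 in PTSO + T. muris, 0.013 in T. muris and -0.025 in PTSO cells.

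Of 14 regulators of TOP mRNA translation, Ddit4 and Sesn2, both inhibitors of mTOR complex 1, were called. The calls numbered 1 in PTSO + T. muris, 2 in T. muris and 1 in PTSO cells against Control. There was 1 call in PTSO + T. muris against T. muris cells. Of all tested genes 16.7%, 6.35%, 5.25% and 0.616% were called in these comparisons. Ddit4 was higher in PTSO + T. muris than in T. muris cells by a log2 fold change of 0.30 ± 0.058 (SE; adjusted p = 0.0215, edgeR). It was lower in T. muris than in Control cells, at -0.31 ± 0.058 (SE; adjusted p = 0.0117, edgeR), and higher in PTSO than in Control cells, at 0.24 ± 0.057 (SE; adjusted p = 0.0197, edgeR). The call in PTSO cells was kept without control libraries 2 and 3, and that in T. muris cells was not. Sesn2 was higher in PTSO + T. muris than in Control cells, at 0.53 ± 0.12 (SE; adjusted p = 0.00611, edgeR), and in T. muris than in Control cells, at 0.51 ± 0.12 (SE; adjusted p = 0.0237, edgeR), and neither call was kept without control libraries 2 and 3. Larp1, Mtor, Rptor and both S6 kinase genes were not called in any of the 5 pairwise comparisons.

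Of 76 tested mitochondrial ribosomal protein genes, which serve the separate ribosome of that organelle, 13 were called higher in PTSO + T. muris against Control. Another comparison with Control, that of T. muris cells, gave 5 higher, that of PTSO cells gave none, and none was lower. Of all tested genes, 7.88% were called higher in PTSO + T. muris against Control. In T. muris and PTSO cells against Control, 6.35% and 5.25% were called in either direction. Mrpl18 had the smallest adjusted p, at a log2 fold change of 0.33 ± 0.062 in PTSO + T. muris cells (SE; adjusted p = 0.00186, edgeR). The median log2 fold changes in PTSO + T. muris, T. muris and PTSO cells were 0.15, 0.13 and 0.08 with all libraries. Without control libraries 2 and 3 they were 0.02, 0.01 and -0.06. Without control library 1, 37, 35 and 27 of these genes were called higher, and 1 lower in each comparison. That fit called 4799, 4044 and 3637 of all genes. Rpl7l1 and Rps19bp1, relatives left out by the naming rule that act in ribosome assembly, were called higher in PTSO + T. muris against Control, at 0.25 ± 0.059 and 0.42 ± 0.11 (SE; adjusted p = 0.00717 and 0.0178, edgeR). The median log2 fold change of the pair in that comparison was 0.34 with all libraries and 0.11 without control libraries 2 and 3.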

How the data were processed

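RNA of 12 libraries was sequenced, and the authors deposited one table of whole-number read counts per gene, not normalized. HISAT, DESeq2 and the build mm39 are named per the submitters' processing notes, without versions; no source names the read counter, its strand setting or its handling of reads that match several genes. The members and gene lists were chosen with earlier results of these data known.

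Counts were filtered with filterByExpr (minimum count 10), which kept 15267 genes and 99.9% of counts, scaled by TMM, and fitted in edgeR 4.0.16 (R 4.3.3) with 1 mean per group over all 12 libraries (8 residual degrees of freedom, robust quasi-likelihood F-test, two-sided). P-values were adjusted by Benjamini-Hochberg over all 15267 genes, and calls were made at 0.05. The biological coefficient of variation was 8.74%. The SE was taken as the log2 fold change over the root of F. The fit was tested on simulated counts. Genes named are those called, the 3 highest and 3 lowest estimates per pairwise comparison, the P stalk, paralog copies and the most and least abundant of each subunit; others are said to be chosen after their values were seen, or were called by an alternative. Transcript lengths and identities came from a GRCm38 annotation, an earlier build than that of the counts, matched by gene identifier for all 91 members. The shortest principal transcript was used, or the longest transcript where none was marked as principal. Rows named as unannotated genes (1336) held 0.351% of counts and stayed in. No 2 libraries were alike within counting noise. Alternatives were DESeq2 1.42.0, no filter, other scaling, a replicate block, subsets of libraries, and members summed with their copies; the last and the subsets of pathway lists, shares and group overlaps were added after seeing the data. Values of a few single genes are not reported here.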

Additional observations from a re-analysis of the deposited data

How the results depend on the processing

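The results against Control rest on which Control libraries are used. Without control libraries 2 and 3 the medians against Control for large and small subunit genes became -0.058 and -0.055 in PTSO + T. muris cells. They became -0.035 and -0.050 in T. muris and -0.081 and -0.080 in PTSO cells, and 0.067 and 0.078 for the interaction. The Control shares became 2.62% and 1.76%. Without control library 1, the members whose groups did not overlap numbered 53 in PTSO + T. muris, 62 in T. muris and 42 in PTSO cells, each against Control, where all genes gave 8139, 7759 and 7328, and the main counts were 14, 8 and 5. Leaving out 1 library at a time, the members called ranged from 0 to 37 in PTSO + T. muris against Control, 0 to 40 in T. muris against Control, 0 to 24 in PTSO against Control, 0 to 12 for the interaction and 0 to 37 in the 4-group test, each maximum coming without control library 1. The interaction median of the large subunit ranged from -0.13 there to -0.025, and that of the small subunit from -0.089 there to 0.00092 without PTSO library 3. DESeq2 called 8 in T. muris against Control, 5 in PTSO against Control and 5 in the 4-group test. With no filter on low counts 14 were called in PTSO + T. muris, 11 in T. muris and 4 in PTSO cells against Control, and 13 in the 4-group test. Of the main 9, 7 were among the 14. All genes called there numbered 2963, 2063, 1728 and 2941, against 2554, 969, 802 and 1634 in the main fit. With the libraries compared alone, 0 were called in PTSO + T. muris against Control and 1 against T. muris. Of all genes 864 and 479 were called there, against 2554 and 94 in the main fit. Library totals without TMM factors gave 2 in the 4-group test, and sums with named copies gave 1. With rows named as pseudogenes the shares were 2.70% and 1.82% in PTSO + T. muris, 2.70% and 1.80% in T. muris, 2.62% and 1.75% in PTSO cells and 2.57% and 1.70% in Control cells. The cause of these shifts was not tested. Whether the replicate numbers pair the libraries was not settled. The deviations of 18 same-numbered pairs correlated at -0.0584 to 0.0976, none above 0.1, and those of 36 other pairs at -0.0852 to 0.0592. Of 12 libraries, 8 correlated best with a library of their own number. The fit with a replicate block called 5 in T. muris against Control, 1 in PTSO against Control and 3 in the 4-group test. Of all genes it called 1246, 904 and 1778. Of the named genes, Rpl17 changed sign when summed with copies, at 0.012 and 0.044 in PTSO + T. muris against T. muris and PTSO, and at -0.073 in T. muris and -0.10 in PTSO cells against Control. Leaving out 1 library at a time changed the sign of 5 genes. In PTSO + T. muris against T. muris, Rpl17 ranged from -0.50 to 0.21, Rps27 from -0.46 to 0.028 and Rps27rt from -0.48 to 0.50, passing through -0.0073 without T. muris library 1. In PTSO + T. muris against PTSO, Rpl17 ranged from -0.56 to 0.14, Rps27rt from -0.34 to 0.64 and Rpl7a from -0.29 to 0.0063. In PTSO against Control, Rpl3l ranged from -0.71 to 1.69, and Rps3a3 was at 0.0082 without control libraries 2 and 3. Depth limits Rpl3l, Rpl24 and Rpl36al, which had 58, 174 and 263 counts over all libraries.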
